A study of Mus musculus with 18 samples.

Results

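The guanylate-binding protein genes Gbp2, Gbp3, Gbp4, Gbp5, Gbp6, Gbp7, Gbp8, Gbp9, Gbp10 and Gbp11 were followed through the response of salivary gland stroma to adenovirus. They are 10 of the 55401 genes counted, were taken by name. The family was selected on its CPM levels and fold changes over the 6 groups, which were already known from these libraries. The members' levels and calls are therefore given as a description, and the counts of members called support nothing by themselves. The cells were wild-type gp38+ stromal cells, the podoplanin-bearing, fibroblast-rich fraction, isolated by cell sorting out of salivary glands, from Balb/c mice 8 to 12 weeks old. RNA sequencing was done on 18 libraries, each labelled as a mouse of its own, in 6 groups of 3. Replicates 10 to 12 came from uninfected glands (hour 0), and the others from glands infected through the cannulated submandibular duct with replication-defective Ad5. These were taken at hour 3 (replicates 4 to 6), day 1 (replicates 13 to 15), day 2 (replicates 16 to 18), day 8 (replicates 1 to 3) and day 23 (replicates 7 to 9). Cannulation and virus come together in every comparison with hour 0, and the virus, being replication-defective, does not spread from cell to cell.

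Guanylate-binding proteins are large GTPases of the dynamin superfamily. Interferon-gamma is their classical inducer, and type I interferons induce many of them too. They assemble on the vacuoles and membranes of intracellular pathogens, work with the immunity-related GTPases, and take part in inflammasome activation. In mice the genes lie in a cluster on chromosome 3 and another on chromosome 5. All 10 members passed the filter on low counts.

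On the GRCm38 (mm10) assembly, the chromosome 3 members lie on the plus strand in the order Gbp5 (ENSMUSG00000105504, 142493978 to 142522344), Gbp7 (ENSMUSG00000040253, 142530342 to 142550149), Gbp3 (ENSMUSG00000028268, 142560026 to 142573209) and Gbp2 (ENSMUSG00000028270, 142620602 to 142638008). Gbp2b, a guanylate-binding protein gene that is not a member here, lies between Gbp3 and Gbp2 (ENSMUSG00000040264, 142594847 to 142619179). The chromosome 5 members lie on the minus strand and are Gbp8 (ENSMUSG00000034438, 105014150 to 105139540), Gbp9 (ENSMUSG00000029298, 105077630 to 105139539), Gbp4 (ENSMUSG00000079363, 105115767 to 105139586), Gbp10 (ENSMUSG00000105096, 105215699 to 105239533), Gbp6 (ENSMUSG00000104713, 105270702 to 105293698) and Gbp11 (ENSMUSG00000092021, 105323042 to 105346472). GENCODE annotates Gbp11 as a polymorphic pseudogene and the others as protein-coding. The gene models of Gbp8, Gbp9 and Gbp4 overlap at their 5′ ends but share at most 1.77% of exon bases. Counts of Gbp6 and Gbp10 are uncertain. Of all 75-base stretches of their exons, 67.3% in Gbp6 and 77.8% in Gbp10 also occur in another gene, mostly each other or a readthrough model over both, and how reads with several matches were counted is not given in the sources used here. For the other members that share was 11.3% in Gbp7, 10.3% in Gbp11, 8.04% in Gbp8 and at most 3.61% in the rest.

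The libraries fall into sets of 9 that the labels do not name: hour 0, day 1 and day 2 on one side, hour 3, day 8 and day 23 on the other. Total counts ran from 4398234 to 15234431 per library. Genes detected ran from 28124 to 42342 in the first set and from 16488 to 21542 in the second. Counts on sensory receptor genes, used here as a gauge of background since stroma should lack them, averaged 0.113, 0.0602 and 0.201 CPM (counts scaled to library size, with TMM factors) per kb of exon at hour 0, day 1 and day 2, and 0.00839, 0.00313 and 0.00257 for the hour 3, day 8 and day 23 groups. Set and time cannot be told apart when hour 3, day 8 or day 23 is compared with hour 0, day 1 with hour 3, or day 8 with day 2. Comparisons among hour 0, day 1 and day 2, and among hour 3, day 8 and day 23, lie within a set. Pdpn, which encodes gp38, stood at 44.0 to 937 CPM over the libraries, with means of 60.4 ± 6.09 at hour 0, 827 ± 100 at hour 3 and 338 ± 121 at day 1. Summed over 10 fibroblast genes, mostly abundant matrix genes, the level was 11981 to 48230 CPM per library.

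Letters upstream of the chromosome 3 genes are shown, since these are the members in the promoter table used and were all higher at hour 3, with Gbp2b as a neighbour that was not. Windows of 300 bases, 250 before and 50 after each RefSeq transcription start (GRCm38.p6), were searched on both strands for the core of the interferon-stimulated response element (ISRE), the letters GAAA, then NN, then GAAA, a motif of many interferon-induced promoters. The gamma-activated site (GAS), TTCNNNGAA, was searched in the same way. The promoter table matched 4 of the 10 members, Gbp2, Gbp3, Gbp5 and Gbp7, and also Gbp2b. The 250 bases before the start are printed 5′ to 3′, with every ISRE and GAS match in capitals.
Gbp2 (chr3:142620413-142620662, plus strand): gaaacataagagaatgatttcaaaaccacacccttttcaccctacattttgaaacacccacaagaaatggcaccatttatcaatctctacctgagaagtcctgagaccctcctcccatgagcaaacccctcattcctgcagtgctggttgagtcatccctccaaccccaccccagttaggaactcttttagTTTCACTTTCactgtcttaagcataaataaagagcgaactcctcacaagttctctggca
Gbp3 (chr3:142559794-142560043, plus strand): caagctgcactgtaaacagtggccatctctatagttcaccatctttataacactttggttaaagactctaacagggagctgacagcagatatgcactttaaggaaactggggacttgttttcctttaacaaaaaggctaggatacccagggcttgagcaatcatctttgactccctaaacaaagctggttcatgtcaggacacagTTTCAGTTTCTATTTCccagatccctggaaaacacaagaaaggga
Gbp5 (chr3:142496684-142496933, plus strand): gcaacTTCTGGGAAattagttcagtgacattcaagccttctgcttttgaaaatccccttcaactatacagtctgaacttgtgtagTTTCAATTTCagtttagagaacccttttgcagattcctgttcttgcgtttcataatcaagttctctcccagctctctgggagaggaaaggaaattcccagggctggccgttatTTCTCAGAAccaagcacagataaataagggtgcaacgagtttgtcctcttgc
Gbp7 (chr3:142530086-142530335, plus strand): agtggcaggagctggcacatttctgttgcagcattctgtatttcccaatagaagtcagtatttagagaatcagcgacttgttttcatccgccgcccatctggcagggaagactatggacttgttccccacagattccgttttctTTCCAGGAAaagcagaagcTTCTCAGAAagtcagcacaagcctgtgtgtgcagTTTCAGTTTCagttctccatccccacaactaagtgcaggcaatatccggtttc
Gbp2b (chr3:142594597-142594846, plus strand): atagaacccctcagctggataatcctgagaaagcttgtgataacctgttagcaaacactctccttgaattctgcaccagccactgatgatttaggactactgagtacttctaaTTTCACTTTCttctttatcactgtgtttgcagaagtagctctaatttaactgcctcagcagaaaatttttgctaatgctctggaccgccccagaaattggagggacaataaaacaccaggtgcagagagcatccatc
Each of these windows held the ISRE core, which 3.44% of all 32851 windows of that length hold. In Gbp2 the match TTTCACTTTC begins 59 bases before the start, and Gbp2b has the same letters 137 bases before its own. In Gbp3 the matches TTTCAGTTTC and TTTCTATTTC overlap, beginning 45 and 39 bases before the start, and a second listed Gbp3 start further into the gene had neither motif in its window. The match in Gbp7, TTTCAGTTTC, begins 53 bases before the start, and that in Gbp5, TTTCAATTTC, begins 165 bases before it. GAS letters, held by 8.30% of all windows, were found in Gbp5 (245 and 52 bases before the start) and Gbp7 (106 and 87). A match describes these letters and shows no binding.

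Gbp2 and Gbp5, both prenylated and membrane-bound, were low in uninfected glands and highest at hour 3 and day 1. Their mean was higher at hour 3 with TMM scaling and higher at day 1 with library totals alone, and for Gbp2 also with DESeq2 size factors. Gbp2, which restricts Toxoplasma growth, stood at 78.9, 79.2 and 113 CPM at hour 0 and at 2813, 1812 and 1793 CPM at hour 3. At day 1 its 3 libraries held 1628, 3396 and 1248 CPM, at day 2 593, 555 and 717, on day 8 419, 206 and 287, and at day 23 347, 160 and 229. Every infected library was above every uninfected one, and hour 3 and day 1 overlapped. Gbp5, which promotes inflammasome assembly, rose from 19.4, 26.4 and 33.8 CPM at hour 0 to 745, 558 and 482 at hour 3. It then stood at 393, 748 and 309 CPM at day 1, 181, 232 and 231 at day 2, 118, 43.9 and 71.3 on day 8, and 105, 55.9 and 116 at day 23. As for Gbp2, hour 3 and day 1 overlapped, and so did day 8 and day 23.

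Against hour 0, Gbp2 was 23.7-fold higher at hour 3 (log2 fold change 4.57 ± 0.34 SE) and Gbp5 22.4-fold higher (4.48 ± 0.35). At day 1 the log2 fold changes over hour 0, within one set, were 4.53 ± 0.34 and 4.18 ± 0.34. At day 23 they were still 1.44 ± 0.30 and 1.79 ± 0.32.

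Gbp3 and Gbp7 followed the same course with smaller steps and with their highest mean at day 1. Gbp3 averaged 98.3 ± 12.8 CPM (SD, n = 3) at hour 0, 715 ± 194 at hour 3, 1032 ± 200 at day 1, 501 ± 75.7 on day 2, 211 ± 64.8 on day 8 and 221 ± 39.6 at day 23. Its hour 3 libraries overlapped those of both day 1 and day 2. Gbp7, linked to assembly of the phagocyte NADPH oxidase, was at 51.9, 51.2 and 44.4 CPM at hour 0, 216, 187 and 171 at hour 3 and 325, 524 and 306 at day 1. It fell to 131 ± 8.35 CPM at day 2, and day 8 (114 ± 41.3) and day 23 (111 ± 10.5) overlapped. Log2 fold changes at hour 3 over hour 0 were 2.86 ± 0.23 for Gbp3 and 1.96 ± 0.22 for Gbp7.

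**Figure D1:**
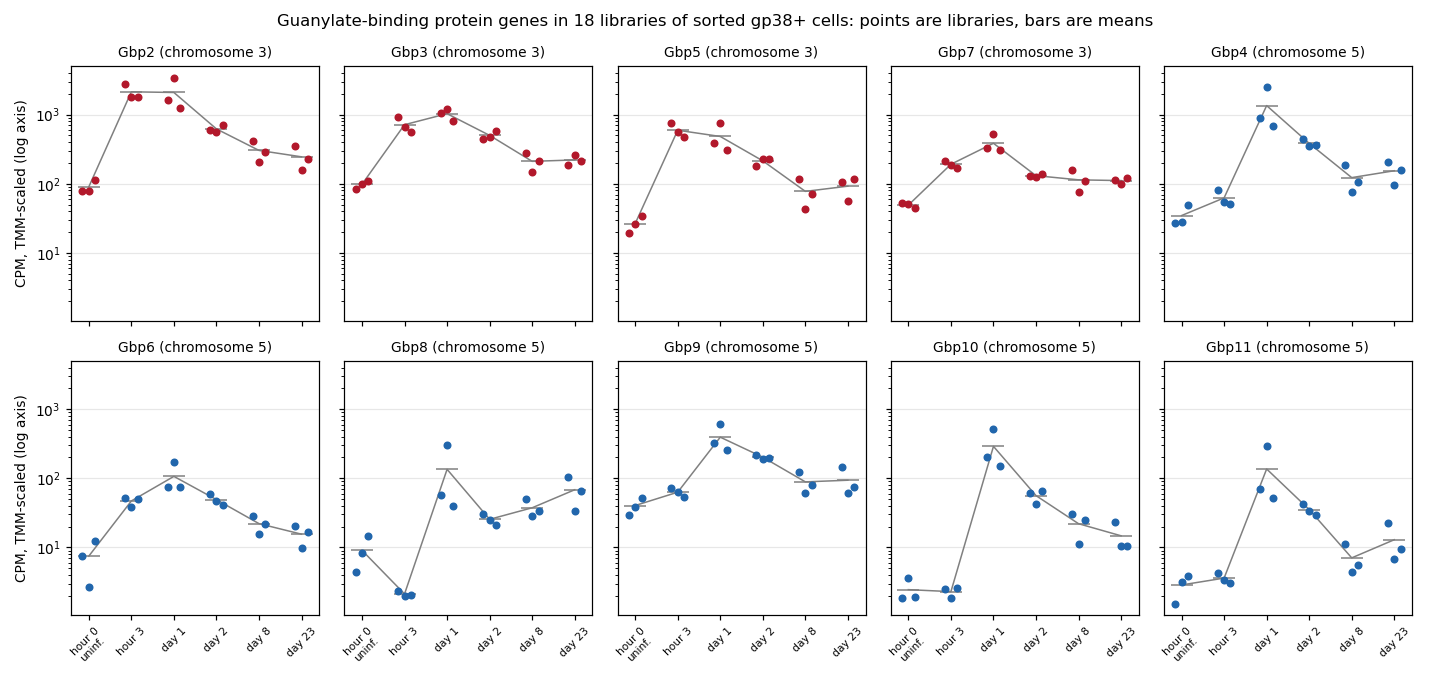
Level of each member in CPM (TMM-scaled, log axis) by time group. Each point is 1 library, grey bars are group means. Chromosome 3 genes (red) were already high at hour 3, while Gbp8, Gbp10 and Gbp11 (blue) stood below 5 CPM there and between 39.2 and 520 CPM at day 1.

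Among the chromosome 5 genes, Gbp4, Gbp8, Gbp9, Gbp10 and Gbp11 showed little or no rise at hour 3 and a large one by day 1. Gbp10 held 1.84, 3.62 and 1.90 CPM at hour 0 (19 to 32 counts per library) and 2.48, 1.85 and 2.57 CPM at hour 3 (14 to 20 counts). At day 1 it was at 201, 520 and 149 CPM, followed by 60.4, 42.1 and 66.1 at day 2, 11.0 to 30.1 on day 8, and 10.4 to 23.2 at day 23. Hour 0 and hour 3 overlapped, and every later library was above both. Gbp11 read 1.55, 3.17 and 3.89 CPM at hour 0, 4.30, 3.43 and 3.09 at hour 3, and 69.0, 289 and 51.3 at day 1. Day 2 libraries of Gbp11 held 43.1, 33.5 and 29.4 CPM, and the means on day 8 and day 23 were 7.07 ± 3.66 and 12.9 ± 8.35. For Gbp11, too, hour 0 and hour 3 overlapped.

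Gbp4, reported to bind the transcription factor IRF7, was the most abundant chromosome 5 member by CPM per kb from day 1 to day 2 and at day 23. It went from 27.3, 27.8 and 49.1 CPM at hour 0 through 81.5, 54.3 and 51.9 at hour 3 to 892, 2484 and 677 at day 1. Day 2 libraries held 442, 349 and 361 CPM, day 8 libraries 186, 75.2 and 107, and day 23 libraries 210, 97.3 and 156. Its hour 3 libraries were above those of hour 0, and the lowest of the former exceeded the highest of the latter by little. Gbp9, one of the members recruited to Toxoplasma vacuoles, averaged 40.4 ± 11.6 CPM at hour 0, 63.0 ± 9.85 at hour 3, 394 ± 188 at day 1, 202 ± 13.2 on day 2, 88.9 ± 32.3 on day 8 and 93.8 ± 46.0 at day 23.

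Gbp8 was the only member whose mean at hour 3 lay below that at hour 0 without overlap. It held 4.35, 8.27 and 14.6 CPM at hour 0 (45 to 177 counts) and 2.35, 1.98 and 2.06 at hour 3 (15 to 18 counts). At day 1 its libraries read 58.0, 307 and 39.2 CPM, at day 2 30.5, 24.8 and 21.3, on day 8 50.6, 28.3 and 33.6, and at day 23 105, 34.0 and 66.3. Of the 10 members it alone had a higher mean on day 8 than at day 2. From day 1 on, though, neighbours in the order of its levels overlapped: day 2 with day 8, day 8 with day 23, and day 23 with day 1. Per kb of exon, Gbp8 stood at 2.64 CPM at hour 0 and 0.618 at hour 3, above the receptor-gene background in both sets (0.113 and 0.00839). The fall at hour 3 crosses the sets, and its adjusted p of 0.00639 rose as far as 0.30 under other settings.

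Gbp6, whose counts are uncertain, went with the chromosome 3 genes at hour 3. Its libraries held 7.45, 2.72 and 12.3 CPM at hour 0, 52.5, 38.9 and 49.7 at hour 3 and 74.0, 172 and 74.2 at day 1. It averaged 49.2 ± 9.28 CPM at day 2, 22.1 ± 6.56 on day 8 and 15.6 ± 5.18 at day 23, and day 23 overlapped hour 0.

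At hour 3, 6 members had risen over hour 0 (16.9% of the 27525 genes tested were called higher), 1 had fallen (43.1% called lower), and 3 did not pass. The risen members were Gbp2, Gbp3, Gbp5, Gbp6 and Gbp7, and Gbp4 by 0.85 ± 0.36 on the log2 scale (edgeR adjusted p = 0.0445, up to 0.425 under other settings). Gbp8 was the one that fell, by 2.10 ± 0.62. Gbp9 changed by 0.64 ± 0.30, Gbp11 by 0.32 ± 0.57 and Gbp10 by -0.06 ± 0.53, without passing. Gbp9 passed with no filter (0.76, adjusted p = 0.00099), with the groups compared alone (0.58, 0.0133) and without replicate 12 (0.89, 0.0261). The median over members was 1.40, against -1.41 over all genes tested. With libraries scaled by their totals alone, the median of all genes moved by a further -1.15, and Gbp4, Gbp9 and Gbp11 turned to -0.32, -0.53 and -0.85.

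By day 1, all 10 members had risen over hour 0, where 9.67% of genes were called higher and 12.8% lower, and in each member every day 1 library was above every hour 0 library, as held for 12.8% of all genes tested. The log2 fold changes ran from 2.97 ± 0.23 in Gbp7 to 6.90 ± 0.47 in Gbp10, with Gbp11 at 5.56 ± 0.54 and Gbp4 at 5.28 ± 0.42 next. Gbp6 (14.0-fold), Gbp8 (3.88 ± 0.53), Gbp3 (3.39 ± 0.24) and Gbp9 (3.28 ± 0.32) lay between. The median was 4.03, against -0.41 over all genes.

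**Figure D2:**
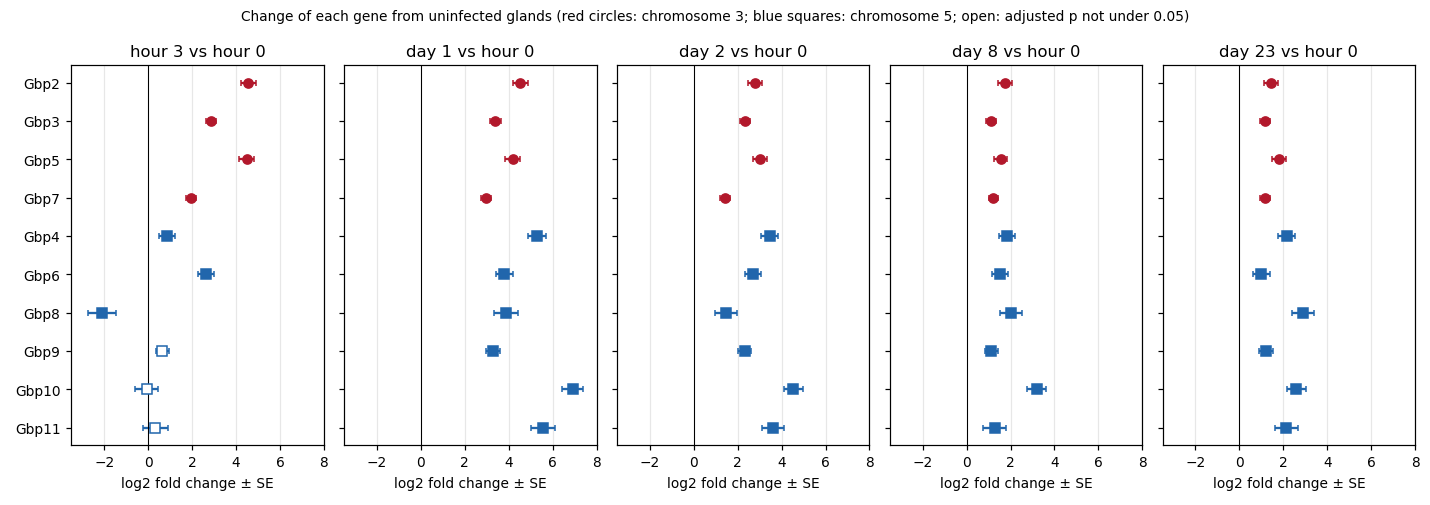
Log2 fold change of each member from hour 0 with its SE, one panel per infected group. Filled symbols had an adjusted p under 0.05, open ones did not. Chromosome 3 members (red circles) lie between 1.96 and 4.57 at hour 3, while chromosome 5 members (blue squares) spread from -2.10 to 2.62 there and from 3.28 to 6.90 at day 1. Under scaling by library totals, Gbp4, Gbp9 and Gbp11 fall below 0 at hour 3.

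The step from hour 3 to day 1 crosses the sets. In it 8 members were called higher and 0 lower by edgeR, where 27.5% of genes were called higher and 16.8% lower. Gbp10 differed by 6.97 ± 0.48 on the log2 scale, Gbp8 by 5.98 ± 0.63, Gbp11 by 5.24 ± 0.54, Gbp4 by 4.43 ± 0.40 and Gbp9 by 2.64 ± 0.31. Gbp6, Gbp7 and Gbp3 followed with 1.18 ± 0.34, 1.01 ± 0.21 and 0.53 ± 0.22. Gbp2 (-0.03 ± 0.29) and Gbp5 (-0.30 ± 0.30) did not pass, and both turned positive and were called higher with library totals alone (1.26, adjusted p = 0.0012, and 0.99, 0.00925), where all genes shifted by 1.25. Without replicate 14 of day 1, Gbp6 lost its call (0.65, adjusted p = 0.111), Gbp3 did too (0.39, 0.174), and Gbp5 was called lower (-0.77, 0.0413).

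Hour 3 and day 8 lie within a set, and between them the members parted in direction. Gbp8 (4.13 ± 0.61), Gbp10 (3.25 ± 0.45) and Gbp4 (0.97 ± 0.36) were higher on day 8, where 16.5% of genes were. Gbp5 (-2.94 ± 0.32), Gbp2 (-2.82 ± 0.32), Gbp3 (-1.76 ± 0.22), Gbp6 (-1.09 ± 0.34) and Gbp7 (-0.75 ± 0.21) were lower, where 14.1% of genes were. Scaling by library totals moved all genes by 0.76 and turned Gbp7 to 0.05. Gbp11 (0.97 ± 0.52) and Gbp9 (0.50 ± 0.29) did not pass. Gbp11 passed with library totals (1.77, adjusted p = 0.00838), no filter (1.06, 0.00119) and the groups compared alone (0.93, 0.0437), and Gbp9 with library totals (1.30, 0.00116) and no filter (0.59, 0.0189). The adjusted p of Gbp4 was 0.036 and ran up to 0.37 under other settings. Without replicate 2 of day 8, Gbp6 (-0.96, adjusted p = 0.0556) and Gbp7 (-0.58, 0.0517) no longer passed, which left 3 members lower.

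The division between chromosomes was noticed in these values and then summarised as the share of the family's counts that fell on the 6 chromosome 5 genes, which does not depend on how libraries are scaled. At hour 0 the libraries held 23.5%, 24.7% and 30.9%, and at hour 3 they held 4.39%, 4.84% and 5.13%. At day 1 the share was 32.1%, 42.7% and 31.7%, at day 2 38.8%, 33.3% and 29.9%, on day 8 30.8%, 29.4% and 28.8%, and at day 23 41.2%, 27.4% and 33.0%. All hour 3 libraries were below the other 15, those of day 8 and day 23 in their own set included. Without the uncertain Gbp6 and Gbp10 the hour 3 share was 3.51% ± 0.187 (SD, n = 3), against 24.3% ± 3.83 at hour 0, 31.4% ± 6.15 at day 1, 26.4% ± 1.31 on day 8 and 31.9% ± 6.84 at day 23. Gbp6, itself on chromosome 5, did not share the late course, so position and course do not match for every gene.

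**Figure D3:**
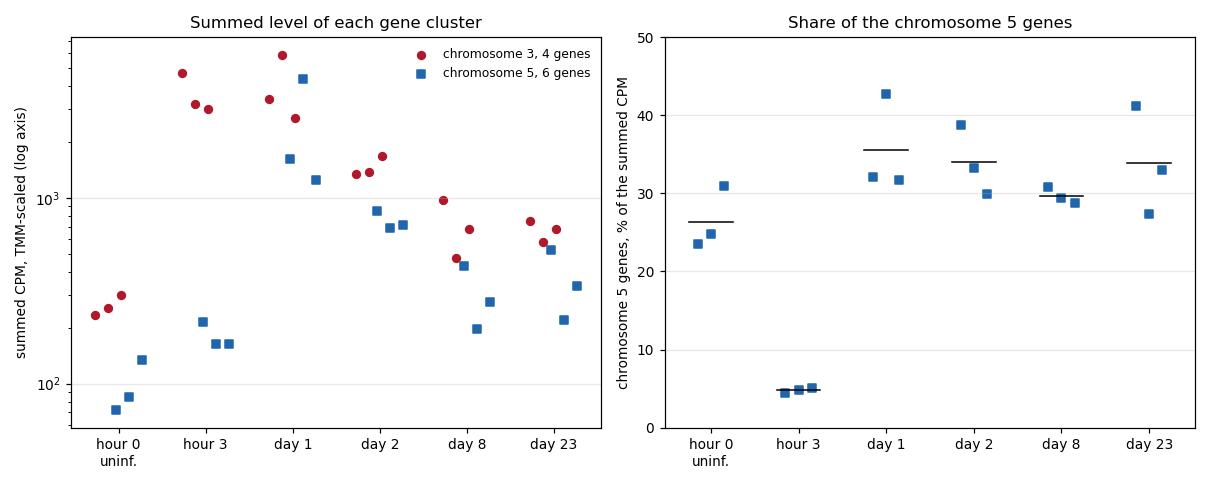
Left, summed CPM (log axis) of the 4 chromosome 3 genes (red circles) and the 6 chromosome 5 genes (blue squares) in each library. Right, the chromosome 5 genes as a percentage of the family, with black lines at the group means: 4.79% at hour 3 against 26.4% to 35.5% in the other groups.

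Over the 18 libraries, log2 CPM of Gbp2 and Gbp5 ran together with a Pearson r of 0.984, and that of Gbp4 and Gbp9 with 0.987. Within chromosome 3 the 6 pairs ranged from 0.896 to 0.984. Within chromosome 5 the 15 pairs ranged from 0.262 to 0.987, with a median of 0.802, and the 24 pairs between chromosomes ranged from -0.00 to 0.910, with a median of 0.617. Gbp6 correlated best with Gbp2 (0.910), and Gbp8 with Gbp10 (0.802). These are descriptions over libraries that share group, set and depth.

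After day 1 the family declined. All 10 members were lower at day 2 than at day 1 (11.2% of genes were called lower), Gbp8 by -2.40 ± 0.49, Gbp10 by -2.37 ± 0.36 and Gbp9 by -0.96 ± 0.29 on the log2 scale. Gbp6 and Gbp9 lost the call with DESeq2 size factors (adjusted p = 0.0502 and 0.0626) and with library totals (0.066 and 0.0941), and Gbp5, Gbp6 and Gbp9 lost it with DESeq2 (0.0709, 0.0732 and 0.159). Replicate 14 of day 1 stood far above the other 2 libraries, with 2484 CPM of Gbp4, 307 of Gbp8 and 289 of Gbp11. Without it, Gbp8 differed by -0.95 and Gbp10 by -1.65, 6 members were called lower, and Gbp5 (-0.72, adjusted p = 0.055), Gbp6 (-0.61, 0.139), Gbp9 (-0.52, 0.139) and Gbp11 (-0.78, 0.0961) were not. All 10 rises of day 1 over hour 0 kept their call without it, with log2 fold changes of 2.41 (Gbp8) to 6.18 (Gbp10).

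At day 2 the 10 members were above hour 0 (5.12% of genes called higher, 9.63% lower), from 1.41 ± 0.22 in Gbp7 to 4.54 ± 0.44 in Gbp10. Gbp8, at 1.47 ± 0.51, had an adjusted p of 0.047, which rose as far as 0.203 under other settings. Background was highest at day 2. From day 2 to day 8, across the sets, 8 members were lower, where 43.3% of genes were, and Gbp7 (-0.20 ± 0.21) and Gbp8 (0.56 ± 0.48) did not pass. Gbp7 was called lower with DESeq2 size factors (-0.54, adjusted p = 0.0342), DESeq2 (-0.54, 0.0427) and library totals (-0.95, 0.00143), and Gbp8 was called higher with no filter (0.86, 0.001) and with the groups compared alone (0.47, 0.0359).

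The later groups were compared with uninfected glands in turn. At day 8 all 10 members were above hour 0 (11.2% of genes called higher, 32.7% lower), by 1.10 ± 0.22 in Gbp3 to 3.19 ± 0.43 in Gbp10. At day 23 all 10 were again (8.51% called higher, 25.4% lower), by 1.00 ± 0.37 in Gbp6 to 2.89 ± 0.52 in Gbp8. Both comparisons cross the sets. The weakest calls were Gbp11 on day 8 (adjusted p 0.0455, up to 0.391 under other settings) and Gbp6 at day 23 (0.0396, up to 0.291), and limma-voom called 5 rather than 10 members higher at day 23. Between day 8 and day 23, within a set, no member was called either way by edgeR, where 2.25% of genes were called higher and 3.08% lower, and the changes ran from -0.59 ± 0.37 in Gbp10 to 0.86 ± 0.47 in Gbp8.

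In all, the 10 genes took 0.0430% ± 0.00625 of a library's counts at hour 0, 0.202% ± 0.0460 at hour 3 and 0.826% ± 0.459 at day 1 (SD, n = 3). The share was 0.340% ± 0.0202 at day 2, 0.0930% ± 0.0420 on day 8 and 0.0918% ± 0.0281 at day 23. At day 1 the libraries held 0.633%, 1.35% and 0.494%. These shares do not use TMM factors. With those factors the order of hour 3 and day 2 was reversed, at 3821 ± 959 and 2221 ± 162 CPM summed over the family. Per kb of exon, Gbp2 ranked first and Gbp3 second in all 6 groups. Gbp2 made up 37.1% of the family's CPM per kb at hour 0, 69.5% at hour 3 and 48.1% at day 1. The place after them passed from Gbp7 at hour 0 (8.76 CPM per kb) to Gbp5 at hour 3 (89.6) and Gbp4 at day 1 (180). Gbp2b stayed at 0 to 23 counts per library and was called higher in none of the comparisons. At day 23 (0 to 4 counts) it was called lower than at hour 0 (15 to 23 counts). It lies between Gbp3 and Gbp2 and has an ISRE core in its window.

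Interferons themselves were near the limit of these counts. Ifng had 0 counts in all hour 0 libraries, up to 2 at hour 3, up to 4 at day 1, and at most 11 in any library. A count of 0 allows up to 3 counts. Over hour 0, edgeR called Ifng higher at day 2 (adjusted p = 0.0345, 2 to 8 counts), day 8 (0.0208, 3 to 11 counts) and day 23 (0.0243, 1 to 7 counts), and not at hour 3 (0.161) or day 1 (0.14). Ifnb1 reached 66, 2 and 38 counts at day 1, the 2 in replicate 14, and 0 in all libraries of day 8 and day 23. Ifna4 had 3 to 21 counts at hour 0, 0 at hour 3, 0 to 18 at day 1 and at most 10 in any later library. Ifnl2 and Ifnl3 did not pass the filter and had at most 7 counts in any library. These interferon genes were chosen after their values were seen, and how they relate to the members' levels was not tested. Of the 9 interferon and receptor genes tested, 3 rose and 1 fell at hour 3, and 3 rose at day 1. Over all genes tested, 16.9% were called higher and 43.1% lower at hour 3, and 9.67% and 12.8% at day 1. The receptor chain Ifnar2 went from 44.1 ± 7.33 CPM at hour 0 to 168 ± 10.8 at hour 3 and 111 ± 13.8 at day 1. Ifngr2 went from 35.1 ± 5.37 to 147 ± 8.52 and 59.1 ± 7.33, while Ifngr1 stood at 255 ± 27.3, 243 ± 6.29 and 190 ± 35.5 CPM and did not pass in either.

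Of 14 JAK, STAT, IRF and feedback genes, 11 rose and 1 fell at hour 3. Later, 11 rose at day 1, 9 at day 2, 10 on day 8 and 7 at day 23. The shares of all genes called higher in these groups were 16.9%, 9.67%, 5.12%, 11.2% and 8.51%. At hour 3, 43.1% were called lower. The kinase Jak1 averaged 265 ± 16.3 CPM at hour 0, 1666 ± 232 at hour 3 and 220 ± 13.6 at day 1, and Stat3 200 ± 15.5, 1526 ± 70.5 and 453 ± 31.2. Irf1, an activator of guanylate-binding protein genes, named after its values were seen, had 162 ± 48.4 CPM at hour 0, 140 ± 19.3 at hour 3 and 344 ± 128 at day 1. It was called higher at day 1 (1.09 ± 0.26) and not at hour 3 (-0.21 ± 0.26). Irf1 did not follow the family's later fall: it averaged 285 ± 62.5 CPM at day 2, 273 ± 81.7 on day 8 and 397 ± 131 at day 23, its highest mean. Replicate 14 held the most Irf1 of the day 1 libraries (491 CPM, against 285 and 257). It also held the most Irf8 (117 CPM, against 23.1 and 21.7), a gene likewise named after its values were seen. How these genes relate to the members' levels in that library was not tested.

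The immunity-related GTPases, partners of the guanylate-binding proteins at pathogen vacuoles, were followed beside them. All 9 tested (of 10 listed) were above hour 0 in each infected group, and all 9 fell from day 1 to day 2. Of all genes tested, 5.12% to 16.9% were called higher than hour 0 in these groups, and 11.2% lower from day 1 to day 2. Iigp1 went from 61.7 ± 21.6 CPM at hour 0 to 893 ± 102 at hour 3 and 871 ± 290 at day 1, Irgm1 from 38.1 ± 4.34 to 589 ± 66.0 and 368 ± 61.3, and Igtp from 33.3 ± 4.83 to 167 ± 27.4 and 563 ± 254. Of 16 type I interferon-stimulated genes, 15 rose at hour 3, 16 at day 1 and 16 at day 2. But on day 8 there were 6 that rose and 1 that fell, and at day 23 there were 4 and 2. All genes tested were called lower than hour 0 in 32.7% of cases on day 8 and 25.4% at day 23. Ifit1, a sensor of viral RNA, averaged 39.9 ± 7.39 CPM at hour 0, 2092 ± 347 at hour 3, 469 ± 113 at day 1 and 55.2 ± 13.9 on day 8.

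Of 12 inflammasome and pyroptosis genes, 6 rose and 1 fell at hour 3, and 7 rose at day 1. Casp4, the mouse caspase-11 gene of the non-canonical inflammasome, went from 10.3 ± 1.93 CPM at hour 0 to 142 ± 16.0 at hour 3 and 91.9 ± 26.4 at day 1. Zbp1, a nucleic acid sensor, peaked at day 1, with 13.3 ± 6.58, 68.8 ± 12.2 and 426 ± 17.2 CPM at hour 0, hour 3 and day 1. Gsdmd, the pore-forming gasdermin D, was called higher at day 1 (1.40 ± 0.21) and not at hour 3 (0.35 ± 0.21). Of 11 genes of the ATG8 conjugation system, which directs these GTPases to vacuoles, 8 rose at hour 3 and 1 at day 1, and 4 fell at day 2. Map1lc3b, an ATG8 protein, held 125 ± 7.45, 229 ± 8.19 and 125 ± 13.5 CPM at hour 0, hour 3 and day 1. The prenylation list held 6 genes linked to this lipid modification, which Gbp2 and Gbp5 carry. Of them 2 rose and 2 fell at hour 3, and 1 rose and 1 fell at day 1. The median log2 fold changes over hour 0 of these lists at hour 3 and day 1 were 3.52 and 3.82 for the immunity-related GTPases, 2.85 and 3.46 for the type I interferon-stimulated genes, 1.78 and 1.51 for the JAK, STAT and IRF genes, 0.77 and 0.61 for the interferons and receptors. For the inflammasome genes they were 0.45 and 1.55, for ATG8 conjugation 0.63 and 0.43, and for prenylation -0.02 and -0.03, beside -1.41 and -0.41 over all genes tested.

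A further 10805 genes reached 10 CPM in a group and were ranked by likeness to the mean member profile over the 18 libraries. Genes with provisional symbols (Gm, Rik, AC, AL or BC) or no GENCODE match were passed over. The first 6 of the rest, by log2 CPM, were Igtp (Pearson r 0.968), Samhd1 (0.963), Batf2 (0.960), Nlrc5 (0.960), Mpeg1 (0.960) and Plac8 (0.952). Batf2 averaged 3.38 ± 1.51, 7.35 ± 2.06 and 85.5 ± 47.7 CPM at hour 0, hour 3 and day 1, and Mpeg1 8.06 ± 2.67, 47.0 ± 9.44 and 693 ± 143.

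Markers of other cells were summed in the same libraries, since bulk counts cannot tell fewer cells of a type from less RNA per cell. At day 1, when the family's mean was highest, 5 pan-leukocyte markers summed to 5.76 to 7.33 CPM. They summed to 12.3 to 17.6 CPM at hour 0 and 79.6 to 113 on day 8. At day 1 the 13 macrophage and dendritic cell markers summed to 23.3 to 34.1 CPM (30.5 to 43.5 at hour 0) and the 13 T and NK cell markers to 10.7 to 14.1 (11.0 to 19.5). In replicate 14 these sums were 6.18, 23.3 and 14.1 CPM. At hour 3 the 8 neutrophil markers summed to 37.2 to 47.7 CPM against 6.00 to 9.29 at hour 0, led by S100a9 (21.5 ± 2.60 CPM), with Ly6g and Elane at 0. T and NK markers at hour 3 were 11.6 to 12.9 CPM, with Cd3d, Cd3e and Klrb1c at 0. Pan-leukocyte markers then summed to 17.9 to 29.4 CPM and macrophage and dendritic cell markers to 54.0 to 80.1, both above hour 0. Epithelial markers (852 to 1177 CPM) and endothelial markers (106 to 125) were also above hour 0 at hour 3. B and plasma cell markers were below it, at 0.772 to 2.61 CPM. The sum of 8 blood endothelial markers was highest at day 1, at 227 to 308 CPM against 74.0 to 83.1 at hour 0, of which Flt1 made up 223 ± 42.2 and Pecam1 2.12 ± 0.510. Of these 8 genes, 1 was called higher at day 1 than at hour 0 and 3 lower (9.67% and 12.8% of all genes). At day 8, where the family was above hour 0, the pan-leukocyte, macrophage and dendritic cell, and T and NK cell sums were too. Neutrophil markers were then below hour 0, at 1.22 to 2.42 CPM. So were 7 B and plasma cell markers, at 1.38 to 2.67 CPM against 9.19 to 12.7. The 8 epithelial markers summed to 2574 to 3112 CPM on day 8 against 353 to 576 at hour 0. At day 23 the pan-leukocyte sum was 42.6 to 60.4 CPM and the macrophage and dendritic cell sum 70.2 to 98.7. T and NK markers summed to 26.2 to 37.6 CPM there, epithelial markers to 716 to 1317 and neutrophil markers to 0.237 to 2.50. B and plasma cell markers (1.61 to 10.7 CPM) and endothelial markers (62.2 to 171) overlapped hour 0 at day 23. The 10 fibroblast genes summed to 47564 to 48230 CPM at hour 3 and 11981 to 16296 at day 1, against 25194 to 29814 at hour 0. What other cells contribute to the members' levels was not tested.

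**Figure D4:**
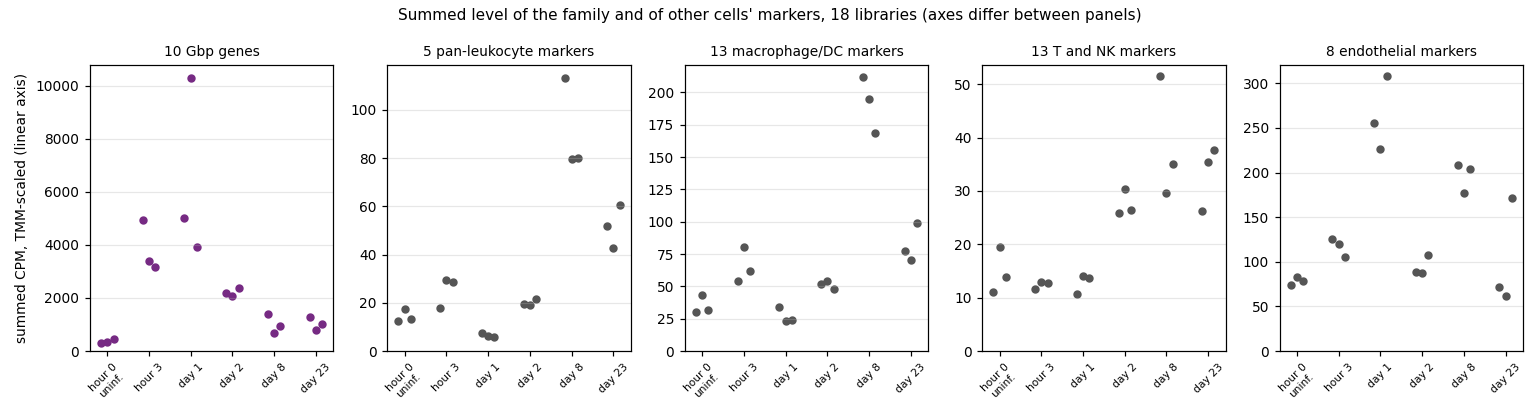
Summed CPM (TMM-scaled, linear axes that differ between panels) of the 10 family members and of 4 marker lists in each of the 18 libraries. The family's mean is highest at day 1 (3928 to 10266 CPM), overlapping hour 3 (3165 to 4922 CPM), which lies in the other set. At day 1 pan-leukocyte markers are lowest (5.76 to 7.33 CPM) and the endothelial sum highest (227 to 308 CPM). Most of that endothelial sum is Flt1 (mean 223 CPM).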

How the data were processed

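RNA was sequenced from sorted gp38+ stromal cells in 18 libraries. Files as deposited hold unnormalised counts for each Ensembl identifier. Per the submitters' processing notes, the authors used FastQC, STAR, Subread and DESeq2 with mm10; versions, annotation, strand and the handling of multiply mapping reads are not given in the sources used here. Balb/c reads were thus counted on a C57BL/6-derived assembly.

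Names and exon lengths came from GENCODE M21, which matched 55141 of 55401 identifiers (the rest held 0.0241% of counts). Totals per library were 4398234 to 15234431. One edgeR 4.0.16 model in R 4.3.3 held the 18 libraries (quasi-likelihood F test, TMM, filterByExpr with a minimum count of 10 and total of 15), and p-values were Benjamini-Hochberg adjusted over 27525 genes, with calls at 0.05. SE is the log2 fold change divided by the square root of F. The script was tested on simulated data. Correlations used log2 CPM with a prior count of 2. No libraries were identical.

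The members and lists were chosen with earlier results of these data known. Named genes are all members, per pathway list up to 3 genes of highest mean CPM in any group, and the 6 genes most alike. Provisional symbols were passed over for the last of these. Others are marked. Other settings were DESeq2 size factors in edgeR, library totals alone, no filter, 5 CPM in 3 libraries, DESeq2 1.42.0, limma-voom (limma 3.58.1), only the groups compared, only a set of 9, and leaving out each replicate. Promoter windows and their letters are RefSeq's. Protein sequences were not analysed here.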

Additional observations from a re-analysis of the deposited data

How the results depend on the processing

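Of 1350 member values under other settings, 1231 kept direction and side of the threshold, 68 lost their call, 17 gained one and 34 changed sign. Gbp2 at day 1 against hour 3 turned to 0.067 with DESeq2 size factors and with DESeq2, 1.26 with library totals, 0.016 with no filter, 0.13 with the filter of 5 CPM and 0.15 with the groups compared alone. Library totals turned Gbp4, Gbp9 and Gbp11 at hour 3 against hour 0 to -0.32, -0.53 and -0.85, Gbp5 at day 1 against hour 3 to 0.99, Gbp8 at day 8 against day 2 to -0.19, Gbp3 at day 23 against day 8 to -0.010 and Gbp7 at day 8 against hour 3 to 0.054. With no filter, Gbp10 at hour 3 was 0.062, Gbp7 at day 8 against day 2 was 0.11, and Gbp3 and Gbp9 at day 23 against day 8 were -0.064 and -0.056. With limma-voom, Gbp10 at hour 3 was 0.011, Gbp7 at day 23 against day 8 was 0.00014 and Gbp9 -0.030; Gbp7 there was 0.00081 with the groups compared alone and 0.0080 with the set of 9. Leaving out 1 replicate gave -0.22 to 0.30 for Gbp10 at hour 3, -0.58 to 0.24 for Gbp2 at day 1 against hour 3 and, at day 23 against day 8, -0.15 to 0.31 for Gbp3, -0.046 to 0.67 for Gbp5, -0.27 to 0.26 for Gbp7 and -0.40 to 0.39 for Gbp9.

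Counts of members called kept within 1.5 times in 257 of 270 cases, among them counts that were 0 and stayed 0. At hour 3 against hour 0 members lower were 2 with library totals (Gbp8 and Gbp10) and 0 with limma-voom. At day 8 against hour 3, 5 were higher and 3 lower with library totals and 5 were higher with no filter, and without replicate 2 the lower ones were 3, so that leaving out 1 replicate gave 3 to 5. At day 8 against day 2, 1 was higher (Gbp8) with no filter and with the groups compared alone. At day 23 against day 8, 1 was higher and 1 lower with no filter, and at day 23 against hour 0 limma-voom called 5 higher. Without replicate 14, 1 member, Gbp5, was lower at day 1 against hour 3 (0 to 1 over all replicates left out) and 6 were lower at day 2 against day 1 (6 to 10). The cause of these changes was not tested. No paired analysis was possible because the groups share no replicate number.

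Over all genes, library totals moved the median of log2 fold changes against hour 0 by -1.15 (hour 3), -0.39 (day 8), -0.44 (day 23) and 0.37 (day 2). Calls higher and lower were then 1489 and 19500 against 4638 and 11865 at hour 3, 2557 and 1277 against 1409 and 2652 at day 2, 1368 and 11890 against 3082 and 8994 at day 8, and 703 and 10921 against 2343 and 7005 at day 23. They were 17166 and 1531 against 7574 and 4624 at day 1 against hour 3, 4474 and 1270 against 3312 and 3076 at day 2 against day 1, 1501 and 16612 against 4969 and 11929 at day 8 against day 2, and 8192 and 1815 against 4550 and 3891 at day 8 against hour 3. DESeq2 size factors gave 1950 and 1752 at day 2 against hour 0, 4095 and 1675 at day 2 against day 1, and 3067 and 13544 at day 8 against day 2. Depth limits Ifng, Ifnb1 and Gbp2b, and Gbp8 and Gbp10 at hour 3.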
